A study of Mus musculus with 14 samples.

Results

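The DNA replication genes described here are 43 genes chosen by name from the 55359 genes of the deposited count table. By role they were 10 genes of origin licensing, 9 of helicase activation and the fork, and 12 of polymerases, sliding clamp and ligation. A further 5 supply nucleotides, 4 act on chromatin behind the fork and 3 control the step from G1 into S phase. All 43 had a row in the table, and 42 passed the filter on low counts. Orc1, the subunit of the origin recognition complex whose level follows the cell cycle, did not pass and was not tested.

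A cell copies its DNA once per division. In G1 the origin recognition complex, Cdc6 and Cdt1 load rings of Mcm2 to Mcm7 onto DNA, which is called licensing. In S phase Cdc45 and the GINS complex join the ring to form the moving helicase, polymerases copy both strands, Pcna clamps them to DNA, and Fen1 and Lig1 join the lagging-strand pieces. E2F transcription factors, set free when cyclin-dependent kinases inactivate the retinoblastoma protein, switch on many of these genes. In the adult cerebral cortex neurons no longer divide, and the dividing cells are mostly glia and cells of blood vessels and blood, so replication genes are usually low there.

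RNA was sequenced from mouse cerebral cortex, both hemispheres together, in 4 sham samples, 5 samples taken 2 days after cerebral venous sinus thrombosis (CVST-2d) and 5 taken 7 days after it (CVST-7d). Cerebral venous sinus thrombosis is a clot in the large veins that drain the brain. The labels give no strain, sex, age, method of clot induction or time of collection of the shams. Samples are numbered within each group but are not stated to be separate mice, so p-values measure the spread between these samples, which may be technical. The study's question was which genes differ between sham and damaged cortex at each time.

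Each library held 14696104 to 20798651 gene counts, of which the 43 genes took 4785 to 11217, or 0.0279% to 0.0539%. None of 9 genes that mark the cortex and its neurons, such as Slc17a7 and Tbr1, was at 0 counts in every sample. Their summed level was 1531 to 2137 CPM in sham, 1686 to 2221 at 2 d and 1495 to 2191 at 7 d. CPM are counts per 1000000 counts after TMM scaling for library composition. In bulk tissue, more cells of a kind and more RNA per cell cannot be told apart.

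1 library in the 2 d group stood apart, for these genes and for others. Without CVST-2d sample 5 the test described below called 7.08% of all genes higher at 2 d and 4.59% lower. With that sample the shares were 2.98% and 0.969%. CVST-2d sample 5 lay within the range of the 4 shams for 31 of the 43 genes, above it for 8 and below it for 4. It was the lowest of the 5 samples at 2 d for 35 genes. For 29 genes all of CVST-2d samples 1 to 4 were above every sham while sample 5 was below all 4 of those samples, a pattern found in 8.89% of all tested genes. At 7 d the opposite held for CVST-7d sample 5, which was the highest of its group for 30 of the 43 genes. For the counts of 31, 8, 4, 35 and 30 the share over all tested genes was not computed. They describe the order of the samples and are not read as particular to these genes. Because of CVST-2d sample 5, counts of genes called at 2 d are also given without it. Since sample 5 was singled out by its low values for these same genes, leaving it out is bound to widen their difference from sham. The counts without it describe the other samples and are not independent support.

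**Figure D1:**
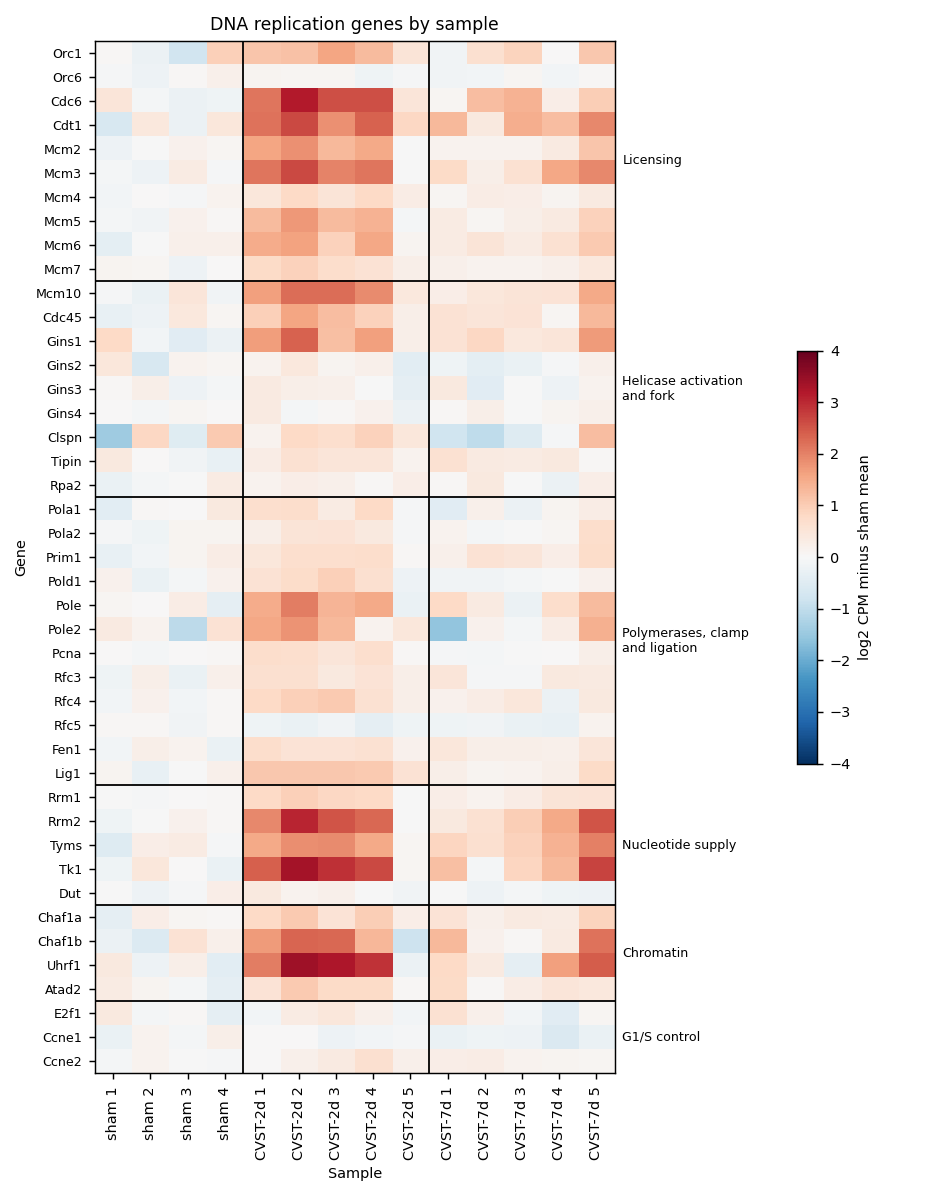
Log2 CPM of each replication gene (rows, grouped by role) in each of the 14 samples (columns), as the difference from the mean of the 4 shams. CVST-2d samples 1 to 4 are raised for most licensing, nucleotide and chromatin genes, CVST-2d sample 5 resembles the shams, and CVST-7d sample 5 is the highest of its group for 30 genes.

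At 2 d after CVST, 19 of the 42 tested replication genes were higher than in sham and 0 were lower (edgeR's quasi-likelihood test with Benjamini-Hochberg adjustment over all 16918 tested genes, adjusted p under 0.05). That is 45.2% of the genes tested, against 2.98% of all genes called higher and 0.969% called lower. Their median log2 fold change was 0.66, or 1.58-fold, with 40 of 42 above 0, while the median over all genes was -0.01. Before adjustment 30 members had a p under 0.05, each of them higher than in sham. The called genes were Cdc6, Cdt1, Mcm2 to Mcm7, Mcm10, Pcna, Rfc4, Fen1, Lig1, Rrm1, Rrm2, Tyms, Tk1, Chaf1a and Uhrf1.

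In all 19 of these genes CVST-2d samples 1 to 4 were above every sham, and in all 19 CVST-2d sample 5 was the lowest of the 2 d samples. In 13 of them sample 5 was within or below the sham range. Without sample 5 the count was 26, against 7.08% of all genes called higher, and the median log2 fold change of the tested members was 0.77. The 7 genes added were Cdc45, Gins1, Prim1, Pold1, Pole, Chaf1b and Atad2. Leaving out 1 sham lowered the count, to 4 without sham 1, 2 without sham 2, 1 without sham 3 and 2 without sham 4. In the same fits 1.15%, 0.453%, 0.349% and 0.489% of all genes were called higher. Without CVST-2d sample 1, 2, 3 or 4 the count was 6, 4, 9 or 6, against 1.27%, 1.11%, 1.56% and 1.36% of all genes. Lig1 was the 1 gene called in all 9 of these fits (adjusted p 0.00164 to 0.0463), followed by Cdt1 in 8 and Cdc6 and Mcm7 in 6 each. For 10 genes, namely Mcm2, Mcm5, Rfc4, Fen1, Rrm1, Rrm2, Tyms, Tk1, Chaf1a and Uhrf1, the call was kept in 1 of the 9 fits, the 1 without CVST-2d sample 5.

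Counted sample by sample, 7 of the 43 genes were above every sham in 5 of 5 samples at 2 d, against 5.66% of all tested genes. These were Cdt1, Mcm4, Mcm7, Rfc3, Rfc4, Lig1 and Chaf1a. A further 23 genes, the untested Orc1 among them, were above every sham in exactly 4 of 5, and for 22 of these the exception was sample 5. Together 30 of 43 were above every sham in at least 4 samples, against 14.1% of all tested genes.

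**Figure D2:**
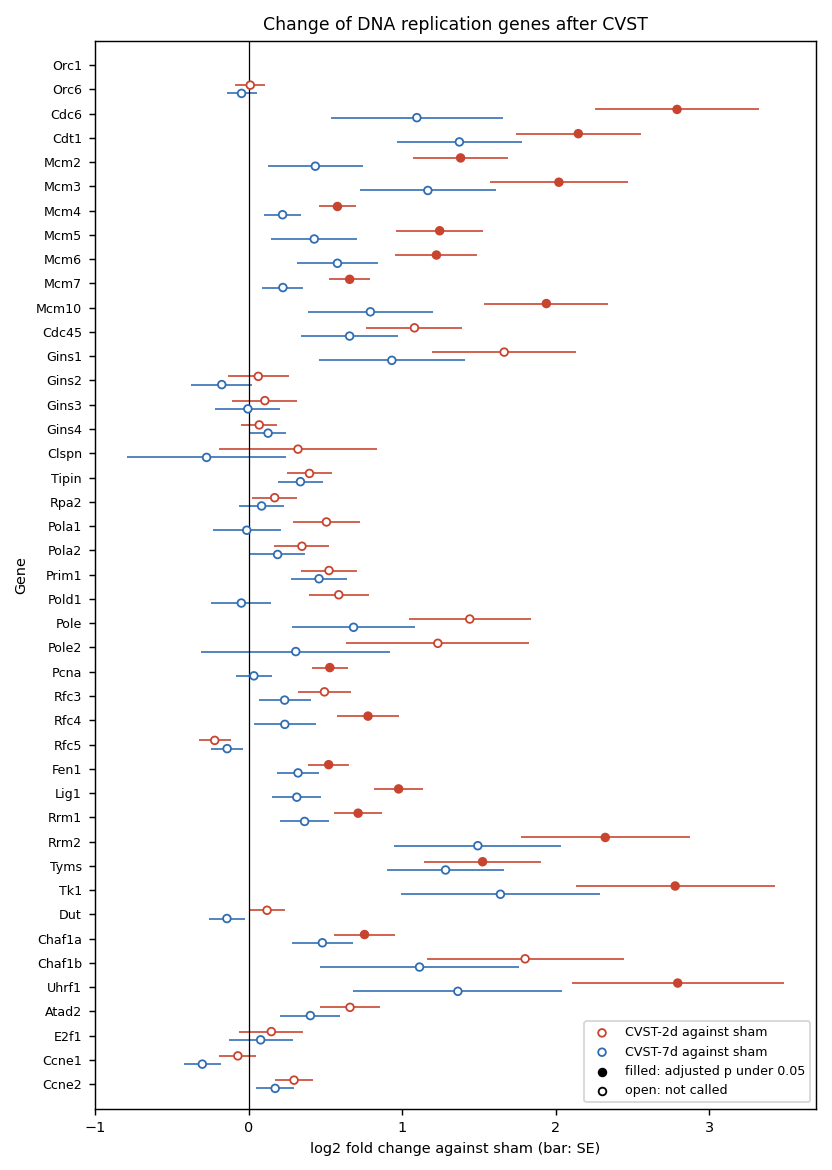
Log2 fold change against sham (horizontal axis, bar for the SE of the fit) of the 42 tested replication genes at 2 d and at 7 d, with filled points for an adjusted p under 0.05. The 19 filled points are all at 2 d and to the right of 0, and each of these genes has a smaller positive value at 7 d. The genes were selected by their 2 d values, so this is partly expected.

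Origin licensing was the role with the most calls. At 2 d 8 of its 9 tested genes rose, with a median log2 fold change of 1.24, and the same number without sample 5. Of all genes, 2.98% were called higher at 2 d, and 7.08% without sample 5. Cdt1 (ENSMUSG00000006585), which brings the Mcm ring to the origin, had the smallest p of the role. It measured 0.471, 1.09, 0.651 and 1.13 CPM in sham samples 1 to 4, and 3.94, 5.53, 3.08, 4.51 and 1.51 CPM in CVST-2d samples 1 to 5. Every 2 d sample was above every sham, with sample 5 nearest to them. The rise was 2.15 ± 0.41 on the log2 scale (SE, n = 4 and 5), or 4.43-fold (adjusted p = 0.0151). Without sham 3 it was not called (adjusted p = 0.0671).

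Cdc6 (ENSMUSG00000017499), the ATPase that loads the ring with Cdt1, was among the lowest of the group, at 4 to 7 counts per sham library. Its level was 0.412, 0.242, 0.200 and 0.216 CPM in the shams and 1.53, 3.23, 2.09, 2.09 and 0.405 CPM at 2 d. Samples 1 to 4 did not overlap with sham, whereas sample 5 fell inside the sham range. The log2 fold change was 2.79 ± 0.54 (6.92-fold, adjusted p = 0.0154).

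All 6 ring subunits, Mcm2 to Mcm7, rose at 2 d, by between 0.58 (Mcm4) and 2.02 (Mcm3) on the log2 scale. Mcm3 (ENSMUSG00000041859) measured 2.59, 2.36, 3.45 and 2.64 CPM in sham and 12.4, 17.6, 11.1, 12.3 and 2.72 CPM at 2 d, a 4.06-fold rise (2.02 ± 0.45, SE, adjusted p = 0.0281). Mcm2 measured 3.47, 3.94, 4.50 and 4.20 CPM in sham and 12.2, 14.4, 10.1, 11.8 and 3.99 CPM at 2 d, a 2.60-fold rise (adjusted p = 0.0296). In both genes samples 1 to 4 were far above the highest sham and sample 5 sat among the shams. Mcm5 rose 2.37-fold and Mcm6 2.33-fold with the same layout, sample 5 at 4.57 and 8.74 CPM lying inside the sham ranges of 4.42 to 5.51 and 6.18 to 9.31 CPM. Mcm4 and Mcm7 moved less, 1.49-fold and 1.58-fold, and were above every sham in 5 of 5 samples.

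The ring contains its 6 subunits in equal number, so their levels were set side by side per transcript length. FPKM, the deposited fragments per kilobase of transcript per 1000000, ran in sham from 1.26 ± 0.15 for Mcm2 and 1.47 ± 0.44 for Mcm3 to 6.84 ± 0.63 for Mcm7 (SD, n = 4). At 2 d the levels were 3.40 ± 1.30 for Mcm2, 6.50 ± 3.27 for Mcm3, 7.05 ± 2.46 for Mcm6 and 11.4 ± 1.67 for Mcm7 (SD, n = 5). The FPKM gains over sham were 5.04 for Mcm3, 4.58 for Mcm7, 4.13 for Mcm6, 2.73 for Mcm5, 2.14 for Mcm2 and 1.55 for Mcm4. Mcm7 thus had a fold change near the bottom of the 6 and a gain in level near the top, and its sham level was the highest.

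The exception in licensing was Orc6 (ENSMUSG00000031697), a subunit of the origin recognition complex and the most abundant licensing gene per length. Its CPM were 17, 15.4, 18 and 20.4 in sham and 19.1, 18.5, 18.8, 15.8 and 17.1 at 2 d. No 2 d sample was outside the sham range, and the log2 difference was 0.01 ± 0.10 (SE, adjusted p = 0.963), with its sign changing when single samples were left out. The untested Orc1 had 1 to 8 counts per library in sham and 5 to 11 at 2 d, or 0.050 to 0.431 and 0.289 to 0.720 CPM.

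Promoter sequence was examined because E2F factors are the textbook regulators of this group. RefSeq promoters (build GRCm38.p6, from 250 bases before to 50 after the start) were at hand for 35 of the 43 genes. They were searched on both strands for 4 E2F letter patterns, TTTCCCGC, TTTGGCGC, TTTCGCGC and TTTGCCGC. In overlapping matches such as those of Mcm5 and Mcm6, 1 stretch of DNA carries a pattern on each strand. At least 1 pattern was present in 15 of 35 genes, or 42.9%, against 4.36% of the 12385 tested genes with a promoter and 2.6% of all 27025 genes with one. The median GC content was 59.2% in the members and 60% in promoters of tested genes. Of the 21 matches 12 began before the start. Among the genes called at 2 d 8 of 18 with a promoter held a pattern (44.4%), and among those tested but not called 6 of 16 did (37.5%). The called genes without a pattern were Mcm2, Mcm10, Pcna, Rfc4, Fen1, Rrm1, Rrm2, Tyms, Tk1 and Chaf1a. Mcm4 was called but had no promoter at hand.

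The windows below, each in the direction of its gene, show these letters in 4 genes of the Mcm ring, in Cdc6 and in Lig1, with capitals marking the E2F patterns. Those of Mcm6 (chr1:128359736-128359825, minus strand), Mcm5 (chr8:75109339-75109428, plus), Mcm7 (chr5:138171974-138172063, minus) and Cdc6 (chr11:98907981-98908070, plus) lie before the start. Those of Mcm3 (chr1:20820266-20820294, minus) and Lig1 (chr7:13278841-13278870, plus) lie just after it.
Mcm6: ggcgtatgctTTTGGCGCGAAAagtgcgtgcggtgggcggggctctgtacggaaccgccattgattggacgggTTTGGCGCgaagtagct
Mcm5: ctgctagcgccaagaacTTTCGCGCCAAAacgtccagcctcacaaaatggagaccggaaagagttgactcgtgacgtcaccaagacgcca
Mcm7: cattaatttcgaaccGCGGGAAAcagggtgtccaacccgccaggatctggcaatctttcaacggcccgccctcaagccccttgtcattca
Cdc6: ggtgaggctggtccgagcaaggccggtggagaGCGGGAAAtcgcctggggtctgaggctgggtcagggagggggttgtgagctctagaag
Mcm3: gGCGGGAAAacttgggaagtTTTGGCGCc
Lig1: cgccaaagtgcGCGCGAAAtctgtgtggcg
A match is a description of the letters and not a measured binding site. The CCAAT box was present in 57.1% of member genes, against 42.5% of tested genes. The CHR patterns TTTGAA and TTCGAA, known from promoters of mitotic genes, were present in 17.1% and 16.5%.

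Of the 9 genes of helicase activation and the fork, 1 rose at 2 d, against 2.98% of all genes. Without sample 5 it was 3, against 7.08%. Mcm10 (ENSMUSG00000026669), which helps to activate the loaded helicase, measured 0.588, 0.485, 0.901 and 0.539 CPM in sham and 2.14, 3.28, 3.34, 2.59 and 0.868 CPM at 2 d. Samples 1 to 4 stood clear of the shams and sample 5 was just under the highest of them. The rise was 3.84-fold (1.94 ± 0.40 on the log2 scale, SE, adjusted p = 0.0214).

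Cdc45 and Gins1, which complete the moving helicase, had log2 differences of 1.08 ± 0.31 (adjusted p = 0.0652) and 1.66 ± 0.47 (adjusted p = 0.0602) and were not called. Both were above every sham in samples 1 to 4 and were called without sample 5. The other 3 GINS subunits did not share this layout. Gins2 (ENSMUSG00000031821), the gene of largest p of the role, measured 20.8, 9.75, 16.8 and 16 CPM in sham and 16.8, 20.3, 16.4, 17.8 and 11.5 CPM at 2 d, all inside the sham range (0.06 ± 0.20, SE, adjusted p = 0.887). Gins3 and Gins4 differed by 0.11 ± 0.21 and 0.07 ± 0.12. GINS also holds its 4 subunits in equal number, and in sham their FPKM were 0.693 ± 0.390 for Gins1, 4.48 ± 1.32 for Gins2, 1.21 ± 0.17 for Gins3 and 10.2 ± 0.53 for Gins4 (SD, n = 4). Gins1 thus had the lowest mean of the complex in sham, and stood at 2.18 ± 1.13 at 2 d (SD, n = 5).

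Tipin (ENSMUSG00000032397), which steadies the fork together with Timeless, was the most abundant fork gene per length. It measured 13.5, 10.4, 9.36 and 8.35 CPM in sham and 12.6, 15.6, 14.3, 14.5 and 11.4 CPM at 2 d. 3 of 5 samples were above every sham, and the difference was not called (0.40 ± 0.15, SE, adjusted p = 0.142). Clspn, the checkpoint adaptor claspin, varied within sham from 0.823 to 5.12 CPM and differed by 0.32 ± 0.51. Rpa2, a subunit of the protein that coats single-stranded DNA, differed by 0.17 ± 0.14.

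Of the 12 genes of polymerases, sliding clamp and ligation, 4 rose at 2 d: Pcna, Rfc4, Fen1 and Lig1. Without sample 5 the number was 7. Over all genes the shares called higher were 2.98% with sample 5 and 7.08% without it. Lig1 (ENSMUSG00000056394), the ligase that seals lagging-strand pieces, had the smallest p of all members. It measured 7.94, 6.06, 7.36 and 8.62 CPM in sham and 15.7, 15.7, 15.8, 15.4 and 11.1 CPM at 2 d. No 2 d sample overlapped with sham, samples 1 to 4 were close to each other, and sample 5 was between the groups. The rise was 1.97-fold (0.98 ± 0.16 on the log2 scale, SE, n = 4 and 5, adjusted p = 0.00914).

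Pcna (ENSMUSG00000027342), the sliding clamp, was the most abundant member per length, at 32.2 FPKM in sham. Its CPM were 40.8, 39.0, 41.6 and 41.7 in sham and 66.3, 64.4, 57.3, 64.4 and 41.7 at 2 d. Samples 1 to 4 were clear of the narrow sham range and sample 5 was level with its top. Pcna rose 1.44-fold (0.53 ± 0.12, SE, adjusted p = 0.0268), and 1.55-fold without sample 5 (adjusted p = 0.000693). Fen1, the flap nuclease that trims lagging-strand pieces, also rose 1.44-fold (adjusted p = 0.0453).

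The clamp loader was measured through 3 of its subunits, of which 1 was called. Rfc4 rose 1.71-fold (0.78 ± 0.20, SE, adjusted p = 0.0465). Rfc3 was above every sham in 5 of 5 samples but was not called (0.49 ± 0.17, adjusted p = 0.113). Rfc5 had the lowest value of all members, -0.22 ± 0.11 (adjusted p = 0.239), with 9.96 to 11.5 CPM at 2 d and 11.6 to 13.3 CPM in sham. In 5 of 5 samples at 2 d Rfc5 was below every sham.

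The polymerase genes were not called. Pole, the catalytic subunit of the leading-strand polymerase epsilon, measured 1.59, 1.51, 1.85 and 1.13 CPM in sham and 4.44, 6.51, 3.99, 4.51 and 1.22 CPM at 2 d. Again samples 1 to 4 were far above sham and sample 5 was not, and the difference of 1.44 ± 0.40 (SE) had an adjusted p of 0.0567. Pole2, its accessory subunit, differed by 1.23 ± 0.60 and Pold1, the catalytic subunit of polymerase delta, by 0.59 ± 0.19. In the primase complex, Pola1, Pola2 and Prim1 differed by 0.51 ± 0.22, 0.35 ± 0.18 and 0.52 ± 0.18. Pola2 (ENSMUSG00000024833) had the largest p of the role. Its CPM were 5.0, 4.54, 5.56 and 5.60 in sham and 6.13, 7.36, 7.66, 6.82 and 4.98 at 2 d (adjusted p = 0.275), so that 4 of 5 samples were above every sham here as well.

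**Figure D3:**
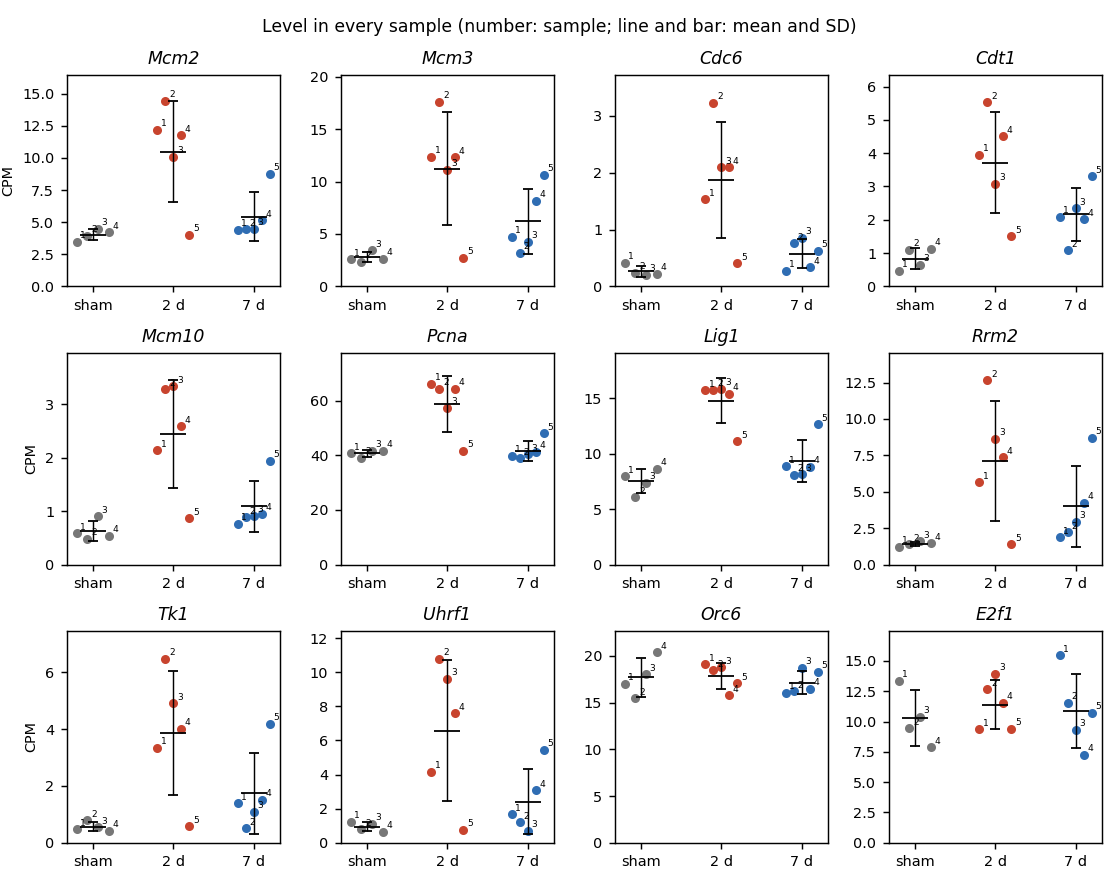
CPM of 12 replication genes in each sample (points, numbered by sample) by group, with the group mean and SD. In Mcm2, Mcm3, Cdc6, Mcm10, Pcna, Rrm2, Tk1 and Uhrf1 CVST-2d sample 5 lies among the shams while samples 1 to 4 are above them, and Orc6 and E2f1 overlap between groups.

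Nucleotide supply rose at 2 d in 4 of 5 genes, with or without sample 5, and its median log2 fold change was 1.52. The shares of all genes called higher were 2.98% with sample 5 and 7.08% without it. Rrm1 (ENSMUSG00000030978), the large subunit of ribonucleotide reductase, measured 15.9, 15.7, 16.4 and 16.8 CPM in sham and 28.0, 31.7, 28.9, 28.1 and 16 CPM at 2 d. The shams differed by little, samples 1 to 4 were well above them and sample 5 was inside their range. The rise was 1.64-fold (0.71 ± 0.16, SE, adjusted p = 0.0279).

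Rrm2, the small subunit of the same enzyme, whose level follows S phase, rose as well. It measured 1.24, 1.39, 1.60 and 1.45 CPM in sham and 5.64, 12.7, 8.64, 7.37 and 1.39 CPM at 2 d, 5.0-fold higher (2.32 ± 0.55, SE, adjusted p = 0.0338). Sample 5 was level with sham 2 while the other samples were far above the highest sham. Per length, Rrm1 stood at 6.08 ± 0.77 and Rrm2 at 0.713 ± 0.084 FPKM in sham, and at 9.74 ± 2.65 and 3.82 ± 2.20 FPKM at 2 d (SD, n = 4 and 5). The gains, 3.67 FPKM for Rrm1 and 3.10 for Rrm2, were closer to each other than the fold changes.

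Tk1, the S-phase thymidine kinase, had 8 to 13 counts per sham library. It measured 0.471, 0.787, 0.551 and 0.431 CPM in sham and 3.34, 6.47, 4.91, 4.02 and 0.579 CPM at 2 d, a 6.86-fold rise (2.78 ± 0.65, SE, adjusted p = 0.0325). Tyms, thymidylate synthase, rose 2.88-fold (1.52 ± 0.38, adjusted p = 0.0414). Both had sample 5 inside the sham range. Dut (ENSMUSG00000027203), the dUTPase and the most abundant gene of the role, measured 20.4, 18.2, 20.1 and 24.7 CPM in sham and 27.5, 22.9, 23.9, 20.4 and 18.6 CPM at 2 d. 1 of 5 samples was above every sham, and the difference was 0.12 ± 0.12 (SE, adjusted p = 0.587).

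On chromatin behind the fork, 2 of 4 genes rose at 2 d, against 2.98% of all genes. Without sample 5 all 4 did, against 7.08%. Uhrf1 (ENSMUSG00000001228), which brings the maintenance DNA methyltransferase to newly copied DNA, measured 1.24, 0.787, 1.10 and 0.647 CPM in sham and 4.16, 10.8, 9.62, 7.59 and 0.753 CPM at 2 d. Its fold change, 6.94 (2.80 ± 0.69 on the log2 scale, SE, adjusted p = 0.0393), was the highest of the 42 tested genes. Sample 5 was inside the sham range. Chaf1a, the large subunit of the histone chaperone CAF-1, rose 1.69-fold (0.75 ± 0.20, adjusted p = 0.0475), with 5 of 5 samples above every sham.

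Chaf1b (ENSMUSG00000022945), its partner subunit, measured 0.412, 0.303, 0.801 and 0.593 CPM in sham and 1.86, 2.95, 2.88, 1.43 and 0.232 CPM at 2 d. Sample 5 lay below every sham, and the difference was not called (1.80 ± 0.64, SE, adjusted p = 0.124). Atad2 (ENSMUSG00000022360), a bromodomain ATPase, measured 11.5, 9.87, 8.76 and 7.22 CPM in sham and 13.5, 19.2, 15.8, 15.7 and 9.61 CPM at 2 d. It was not called either (0.66 ± 0.20, adjusted p = 0.0728). Both were called without sample 5.

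None of the 3 genes of G1/S control was called at 2 d, and 1, Ccne2, had an unadjusted p under 0.05; DESeq2 called none either, nor did edgeR without sample 5. Ccne1 (ENSMUSG00000002068), cyclin E1, the partner of Cdk2 at S-phase entry, measured 11.4, 15.2, 13 and 16.2 CPM in sham and 14.1, 13.9, 12.0, 12.9 and 13.5 CPM at 2 d. All 5 were inside the sham range (-0.07 ± 0.12, SE, adjusted p = 0.778). Ccne2 (ENSMUSG00000028212), cyclin E2, measured 8.23, 9.57, 8.46 and 8.35 CPM in sham and 8.71, 10, 11.1, 13.4 and 9.90 CPM at 2 d. There the exception was sample 1, with the other 4 above every sham (0.30 ± 0.12, adjusted p = 0.183). E2f1, the activator E2F of the group, ranged over 7.87 to 13.4 CPM in sham and 9.36 to 13.9 CPM at 2 d (0.15 ± 0.21, adjusted p = 0.725).

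The members with the larger fold changes were low in sham, as a description across genes that share libraries and are not independent. The sham level is also the denominator of the fold change, so this relation is partly built in. The 16 tested genes that differed by more than 1 on the log2 scale at 2 d had sham means of 0.180 to 2.93 FPKM, with a median of 0.650. The genes called had a median of 1.47 FPKM and those tested but not called one of 3.19.

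A score per sample, the mean log2 CPM of the 42 tested genes minus the sham mean, put the groups side by side. The shams lay at -0.06 to 0.06. CVST-2d samples 1 to 4 lay at 0.92 to 1.23 and sample 5 at 0.068, for a group mean of 0.83 ± 0.44 (SD, n = 5). At 7 d the samples lay at 0.18 to 0.85, with a mean of 0.37 ± 0.27 (SD, n = 5) and sample 5 highest. The summed CPM of all 43 genes was 289.8 to 314.7 in sham, 304.5 to 526 at 2 d and 314.5 to 412 at 7 d.

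**Figure D4:**
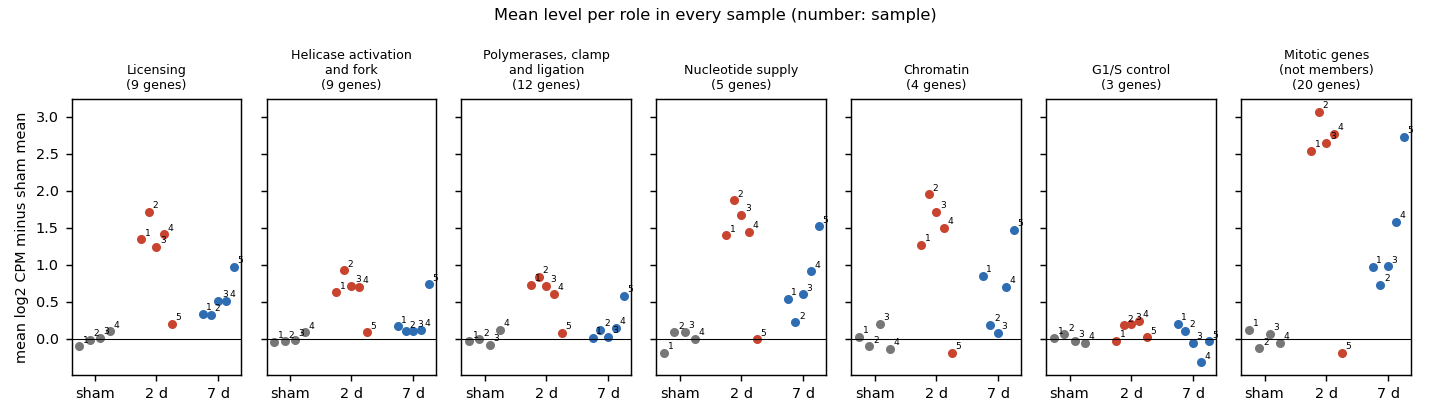
Mean log2 CPM per role minus the sham mean (vertical axis) in each numbered sample, for the 6 roles and for 20 mitotic genes that are not members. In licensing, nucleotide supply and the mitotic list CVST-2d samples 1 to 4 exceed 1.2, CVST-2d sample 5 lies between -0.19 and 0.20, and CVST-7d sample 5 is the highest of its group.

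At 7 d after CVST, 0 of the 42 tested replication genes were called against sham by edgeR, while 3.61% of all genes were called higher and 0.833% lower. The median log2 fold change of the members was 0.32, with 33 of 42 above 0, and before adjustment 11 were higher and 1 lower at a p under 0.05. The DESeq2 Wald test called 3 higher, Cdt1, Rrm2 and Tyms, against 5.68% of all genes it tested. All 19 genes called at 2 d had a positive value at 7 d, and in each it was smaller than at 2 d. These genes were selected by their 2 d values, so smaller values at 7 d are partly expected from the selection. Of them, Pcna and Lig1 were called lower at 7 d than at 2 d. The comparisons of 2 d and 7 d with sham share the 4 shams. Without CVST-2d sample 5, whose spread enters the shared fit, 4 genes were called at 7 d (Cdt1, Mcm3, Rrm1 and Tyms), against 4.54% of all genes called higher. Without CVST-7d sample 2 the 2 genes called were Cdt1 and Tyms, against 5.29% of all genes called higher, a share no lower than that of the members.

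Licensing at 7 d had 0 of 9 calls, 3 genes at an unadjusted p under 0.05 and a median of 0.43. Cdt1 measured 2.09, 1.08, 2.35, 2.01 and 3.30 CPM in CVST-7d samples 1 to 5, against at most 1.13 CPM in sham, and had the smallest adjusted p of all members there (1.37 ± 0.41, SE, adjusted p = 0.0716). Mcm3 measured 4.74, 3.23, 4.24, 8.15 and 10.6 CPM, so that 4 of 5 samples were above every sham (1.17 ± 0.44, adjusted p = 0.154). Mcm6 and Mcm7 were above every sham in 5 of 5, by 1.49-fold and 1.17-fold.

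Nucleotide supply at 7 d also had 0 of 5 calls, with 4 genes at an unadjusted p under 0.05 and a median of 1.28, the highest of the 6 roles. Rrm1, Rrm2 and Tyms were above every sham in 5 of 5 samples. Rrm2 measured 1.88, 2.22, 2.92, 4.24 and 8.71 CPM with a wide spread between samples (1.49 ± 0.54, SE, adjusted p = 0.140). Tyms measured 2.65, 2.28, 2.75, 3.85 and 6.08 CPM, against 0.941 to 1.80 in sham (1.28 ± 0.38, adjusted p = 0.0732). Together with Mcm6 and Mcm7 these made 5 of 43 genes above every sham in all 7 d samples, against 5.84% of all tested genes.

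For the other roles the 7 d medians were 0.13 for helicase activation and the fork, 0.24 for polymerases, clamp and ligation, 0.80 for chromatin and 0.08 for G1/S control. Pcna measured 39.8, 39.0, 40.4, 41.4 and 48.1 CPM at 7 d, so 3 of 5 samples were inside the sham range, sample 2 was just below it and sample 5 above it (0.03 ± 0.12, SE, adjusted p = 0.905). The sign of this small difference changed without CVST-7d sample 5, to -0.02. Lig1 measured 8.85, 8.11, 8.14, 8.82 and 12.6 CPM (0.31 ± 0.16, adjusted p = 0.303). Uhrf1 ranged from 0.687 CPM in sample 3 to 5.45 CPM in sample 5 (1.36 ± 0.68, adjusted p = 0.288).

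Between 2 d and 7 d, 2 of 42 replication genes were lower at 7 d and 0 higher, against 1.25% of all genes called lower and 1.54% called higher. Pcna fell by 0.49 ± 0.11 on the log2 scale (SE, n = 5 and 5, adjusted p = 0.0310) and Lig1 fell by 0.66 ± 0.15 (adjusted p = 0.0328). These were also the 2 genes called against sham at 2 d that then went back. The median member difference was -0.43, with 2 of 42 above 0, and before adjustment 17 were lower at a p under 0.05. Pcna and Lig1 were not called without any 1 of CVST-2d samples 1 to 4 or CVST-7d samples 1 to 4.

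Without CVST-2d sample 5, 15 of 42 were lower at 7 d, against 4.18% of all genes, with a median of -0.55. They were Cdc6, Mcm2 to Mcm7, Mcm10, Pold1, Pole, Pcna, Rfc4, Lig1, Rrm1 and Uhrf1. Without CVST-7d sample 5 the count was 4, Mcm2, Mcm10, Pcna and Lig1, against 1.14% of all genes called lower. Tyms differed least among the strongly raised genes (-0.24 ± 0.34, SE, adjusted p = 0.725), and Cdc6 most (-1.69 ± 0.45, adjusted p = 0.0601).

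The other genes of the pathway came from lists that hold no member. At 2 d 2.98% of all genes were called higher and 0.969% lower. Of 37 other genes of the replication machinery 3 were higher at 2 d and 0 lower: Timeless, the partner of Tipin (0.91), Ticrr, which helps to fire origins (3.5), and Chtf18 of an alternative clamp loader (1.17). The median of that list was 0.22. Of 18 other genes of nucleotide synthesis 3 were higher, namely Shmt2 (0.50), Gart (0.29) and Paics (0.23), enzymes of 1-carbon and purine synthesis. The 14 other genes of replicating chromatin had 3 higher, Hmgb2 (2.17), the histone chaperone Asf1b (2.75) and the remodeller Hells (0.96). Of 22 genes of replication stress and repair 1 was higher, Fancd2 (1.15). Without CVST-2d sample 5 the numbers higher were 10 of 37 for machinery, 6 of 18 for nucleotide synthesis, 4 of 14 for chromatin and 7 of 22 for stress and repair, against 7.08% of all genes.

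Among 27 other genes of G1/S control 3 were higher and 1 lower at 2 d, against 2.98% and 0.969% of all genes. Cdkn1a, the p21 inhibitor of cyclin-dependent kinases, rose from 17.5 ± 2.34 to 49.4 ± 16.2 CPM (SD, n = 4 and 5), by 1.5 ± 0.25 (SE, adjusted p = 0.00918). Myc rose by 1.22 and E2f8, an E2F that represses transcription, by 3.2, while Ccnd2, cyclin D2, fell by 0.45. Without CVST-2d sample 5, 12 of the 27 were higher and 2 lower, against 7.08% and 4.59% of all genes. At 7 d E2f8 (2.98, adjusted p = 0.0280) and Ccnd2 (-0.47) were called again, Cdkn1a measured 15.6 ± 5.0 CPM (SD, n = 5) and Myc 3.78 CPM. Elsewhere at 7 d Rfc1 and Hmgb2 (1.32) were called higher, and no gene of nucleotide synthesis or of replication stress and repair was called.

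Of 20 mitotic genes, such as Tpx2, Kif20a and Plk1, 17 rose at 2 d, with a median log2 fold change of 2.56, and 19 did without sample 5. Of all genes, 2.98% were called higher at 2 d, and 7.08% without sample 5. At 7 d 1 was called, Cdk1, while all 20 were above 0, 16 had an unadjusted p under 0.05 and the median was 1.68. Without CVST-2d sample 5, 12 were called at 7 d. The share of all genes called higher at 7 d was 3.61% with that sample and 4.54% without it. The score of the mitotic list was 2.54 to 3.06 in CVST-2d samples 1 to 4, -0.19 in sample 5 and 0.73 to 2.72 at 7 d.

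Some marker genes of cells other than neurons also differed from sham at 2 d, at 7 d or at both. Their part in the results above was not tested. Of all genes, 2.98% were called higher at 2 d and 3.61% at 7 d, the shares to set beside the counts below. Of 10 microglia markers 1 was higher at 2 d and 4 at 7 d, with a summed level of 319 to 370.3 CPM in sham, 540.2 to 766 in CVST-2d samples 1 to 4, 300.1 in sample 5 and 426 to 1214 at 7 d. Of 10 monocyte and macrophage markers 1 and 6 were higher, with sums of 20.6 to 23.2 CPM in sham, 53.2 to 260 at 2 d (sample 5 lowest) and 32.9 to 2018 at 7 d. Of 10 astrocyte markers 4 and 3 were higher, with sums of 2822 to 3665, 3424 to 4698 (sample 5 lowest) and 4104 to 7644 CPM. The astrocyte list was mixed at 2 d, with 6 of 10 markers above 0 and a lowest log2 fold change of -0.48. In it 3 markers were lower at an unadjusted p under 0.05, as was 1 marker each of microglia and endothelium.

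Of 10 endothelial markers 2 were higher at 2 d and 0 at 7 d, with sums of 254 to 355 CPM in sham, 310 to 503 at 2 d and 273 to 386 at 7 d. Fibroblast markers had 0 and 3 of 7 higher, with sums of 63.6 to 106, 96.2 to 185 and 125 to 2902 CPM. Neutrophil markers had 1 of 3 tested higher at 2 d (0.363 to 3.0, 2.08 to 8.44 and 0.507 to 3.88 CPM). Of 5 genes of a red cell list, 3 were under the filter and the 2 tested were the globins Hba-a1 and Hbb-bt. Neither globin was called, and both had an unadjusted p under 0.05 at 2 d. The list summed to 1.05 to 7.63, 7.87 to 113 and 0.760 to 8.22 CPM. These globins do not mark red cell precursors in particular. Mural cell and oligodendrocyte precursor markers had 0 of 8 called at either time against sham, with 1 and 2 genes, in that order, at an unadjusted p under 0.05 at 2 d. Lymphocyte markers had 0 of 2 tested called. Neuroblast markers had 0 of 7 higher and 1, Dlx1, lower at 7 d (-0.36, adjusted p = 0.040). Without CVST-2d sample 5, 7.08% of all genes were called higher at 2 d. The markers called higher were 4 of 10 for microglia and 4 of 10 for monocytes and macrophages. For astrocytes they were 6 of 10, and for endothelium 2 of 10. They were also 2 of 2 for the globins and 1 of 8 each for mural cells and oligodendrocyte precursors. The number was 0 for fibroblasts, neutrophils, lymphocytes and neuroblasts. Slc1a2 of the astrocyte list and Dlx1 of the neuroblast list were called lower. None of these marker genes was at 0 in every sample.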

How the data were processed

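The deposited tables gave, for 14 samples, whole-number read counts per gene and FPKM values, both made by the authors. Per the submitters' processing notes, fastp, HISAT2, DESeq2 1.16.1 and the mm39 build were used. The counting tool with its annotation and strand setting was not given in the sources used here, so reads of overlapping antisense genes cannot be told apart. In 8 rows, those of Mcm7, Cdc45, Clspn, Tipin, Pola2, Chaf1a, Chaf1b and E2f1, the gene was joined to an assembled locus. The deposited table also held 535 entries without an Ensembl gene (0.203% to 0.278% of a sample's counts), which were left out. Pseudogene copies of Pcna and Tyms held 2 counts in all.

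A single fit of the 14 samples was made in edgeR 4.0.16 (R 4.3.3, limma 3.58.1) with group means, TMM factors (0.962 to 1.04) and filterByExpr. The quasi-likelihood test was 2-sided, with Benjamini-Hochberg adjustment over 16918 genes and a threshold of 0.05. SE is that of the fit. Scores used log2 CPM with a prior count of 2. FPKM served to compare levels between genes and, as a description, their gains from sham to 2 d. The values were used as deposited, without the TMM factors, and entered no test. Replicates differed by more than counting noise (lowest chi-square per degree of freedom 8.07, biological coefficient of variation 0.218). Scripts were tested on simulated data. The alternatives were other size factors, no filter, DESeq2 1.42.0, a replicate block, 2 groups alone, and each sample left out. The members and gene lists were chosen with earlier results of these data known. Values in every sample are given for the gene of smallest p, largest p and highest FPKM of each role, and for further genes chosen after their values were seen. Of the cortex marker list, 1 gene is not reported here and was left out of the sums.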

Additional observations from a re-analysis of the deposited data

Results flagged for a closer look

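Dixon's test for a sample far from the rest of its group was applied to 132 groups of values, each gene or the member score in each group, and marked 18 of them. Chance marks about 1 in 20 groups. In 9 of the 18 CVST-2d sample 5 was the low value. These were Mcm2 (3.99 CPM), Mcm3 (2.72), Mcm5 (4.57), Fen1 (10.4), Lig1 (11.1), Rrm1 (16), Tyms (1.51), Tk1 (0.579) and the member score (0.068). In 7 of the 18 CVST-7d sample 5 was the high value, for Mcm2 (8.76 CPM), Mcm7 (15.1), Mcm10 (1.94), Pola2 (8.39), Pcna (48.1), Lig1 (12.6) and the member score (0.85). The genes share libraries, so these marks are not independent. The other 2 were Rfc5, low in sham 3 (11.6 CPM), and Ccne1, low in CVST-7d sample 4 (9.15 CPM).

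A difference between the 2 times passed the test in Pcna (log2 fold change of 7 d against 2 d -0.49) and Lig1 (-0.66).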

How the results depend on the processing

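Counts of members called at 2 d against sham were 19 with DESeq2's size factors in edgeR and 16 without the filter. They were 24 by DESeq2 and 16 with 2 groups alone, beside 19 in the fit of all samples. The shares of all genes called higher were 3.08%, 1.83%, 5.57%, 4.19% and 2.98%, in that order. With a replicate block the count was 5 (Cdc6, Cdt1, Mcm4, Mcm7, Lig1), against 1.1% of all genes called higher. Leaving out 1 sample gave 1 to 26, with 0.349% and 7.08% of all genes called higher in those 2 fits. At 7 d it was 3 by DESeq2, which called 5.68% of all genes higher, and 0 under each other alternative except leaving out 1 sample. That gave 0 to 2 for samples of these 2 groups and 4 without CVST-2d sample 5. The fits giving 2 and 4 called 5.29% and 4.54% of all genes higher. Between the times it was 2, with 9 by DESeq2, 0 with a replicate block, 0 with 2 groups alone and 0 to 15 leaving out 1 sample. Of all genes, 1.25% were called lower in the fit of all samples, 3.94% by DESeq2 and 4.18% in the fit giving 15. The shares were 0.201% with the block and 0.159% with 2 groups alone. The genes that rose at 2 d and went back were 2, with 9 by DESeq2, 0 with the block, 0 with 2 groups and 0 to 15 leaving out 1 sample. The block counts rest on numbers that do not pair the samples: of 13 pairs with the same number 2 had r over 0.1 (-0.44 to 0.28), and 2 of 14 samples correlated best with their own number.

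Over all genes DESeq2 called 1077 higher and 413 lower at 2 d (edgeR 505 and 164), 1064 and 323 at 7 d (611 and 141) and 651 and 644 between the times (261 and 212). With the block, 186 were higher at 2 d, 55 higher and 26 lower at 7 d, and 57 higher and 34 lower between the times. 2 groups alone gave 55 and 26 between the times, and no filter gave 92 lower at 7 d. Leaving out 1 sample gave 60 to 1193 higher and 16 to 774 lower at 2 d, 101 to 892 and 18 to 143 at 7 d, and 98 to 604 and 75 to 705 between the times. The cause was not tested.

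The sign of 15 differences, none of them called in these fits, changed when 1 sample was left out. At 2 d these were Orc6 (-0.042 to 0.084), Gins2 (-0.10 to 0.23), Gins4 (-0.0042 to 0.14) and Ccne1 (-0.15 to 0.0099). At 7 d they were Orc6 (-0.10 to 0.027), Gins3 (-0.11 to 0.10), Clspn (-0.88 to 0.11), Pola1 (-0.13 to 0.13), Pold1 (-0.12 to 0.014), Pole2 (-0.28 to 0.58), Pcna (-0.022 to 0.067) and E2f1 (-0.076 to 0.24). Between the times they were Gins4 (-0.011 to 0.14), Tipin (-0.13 to 0.0077) and E2f1 (-0.23 to 0.046). With the block, Gins3 (0.020), Pola1 (0.021) and Pold1 (0.018) changed sign at 7 d. With a prior count of 0.5 the member score was 0.87 at 2 d and 0.39 at 7 d. Counts of about 10 per library or fewer limit Cdc6, Tk1, Orc1, Mcm10, Gins1, Pole2 and Chaf1b in sham.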

Other observations

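CVST-2d sample 5, at the sham level for most replication genes, was not at the sham level for every gene that rose at 2 d. Cdkn1a, which holds cells before S phase, measured 51.7 CPM there, against 15.6 to 20.9 CPM in sham and 34.3 to 74.7 CPM over the 5 samples at 2 d. Gfap, the intermediate filament of reactive astrocytes, measured 545 CPM, against 128 to 181 in sham and 545 to 1691 at 2 d. Pecam1 of endothelium measured 39.3 CPM, against 18.7 to 25 in sham. The whole marker lists moved less in sample 5. Its summed endothelial markers, 332 CPM, were inside the sham range of 254 to 355. Its summed astrocyte markers, 3424 CPM, were inside the range of 2822 to 3665. Its mean log2 CPM of astrocyte markers, 0.21 over the sham mean, was above the highest sham (0.053). Msr1, a scavenger receptor of macrophages, measured 7.06 CPM, against 0.0539 to 0.242 in sham. Gart, of purine synthesis, measured 34.6 CPM, against 26.3 to 30.8 in sham and 33.4 to 36.4 at 2 d. These genes were singled out after their values were seen, and no test was made of the difference.

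Between 2 d and 7 d the nucleotide synthesis genes Ctps (-0.30), Cad (-0.53), Shmt2 (-0.43) and Gart (-0.28) fell (edgeR, adjusted p 0.0179 to 0.0488), as did Pold2 (-0.52) and Timeless (-0.78) of the replication machinery. In G1/S control Cdkn1a (-1.67), Myc (-1.14), Ccnd1 (-1.05) and Ccnd3 (-0.49) fell and Rbl2, a relative of the retinoblastoma protein, rose (0.34).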
